A study of Mus musculus with 23 samples.

Results

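The genes described here carry bile acids through the cells of the ileum or sense them there: Slc10a2, Fabp6, Slc51a, Slc51b, Fgf15, Nr1h4, Nr0b2 and Gpbar1. Members were all probes that the array's own annotation gives 1 of these 8 gene names, which are 10 of 56605 probes. Of these, 9 probes of 7 genes are in the normalized value table, which holds 37161 probes and 23912 gene names. The probe of Nr0b2 is on the array but outside that table and was read from the scanner output.

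Ileal RNA of male C57Bl6/J mice was hybridised to 23 one-colour Agilent arrays, 1 per mouse. The groups were wild-type mice given corn oil (WT CONT, n = 6), wild-type mice given pregnenolone 16α-carbonitrile (WT PCN, n = 5), and mice without the pregnane X receptor given oil (Pxr-/- CONT, n = 6) or PCN (Pxr-/- PCN, n = 6). PCN is a ligand of rodent PXR, a nuclear receptor that senses drugs and steroids. It was injected into the peritoneum at 100 mg/kg in corn oil once a day on 4 days, and controls had the oil alone. Tissue was taken 6 h after the last injection, at ZT6. The labels call the mice fed, whereas the study's text calls them semi-fasted at that hour, with food always within reach. Mice of both genotypes were acclimatized for 2 weeks. The wild-type mice were bought at 6 weeks of age, whereas the Pxr-/- line, backcrossed to this strain, had been kept in the authors' own facility for 10 years. Genotype and breeding origin therefore cannot be told apart. The deletion is present in every cell, and the arrays measured the whole tissue, so fewer cells of a type and less RNA per cell cannot be told apart.

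Bile acids reach the ileum in the gut contents and most are taken back there. SLC10A2, the sodium-dependent transporter of the brush border, brings them into the enterocyte, FABP6 binds them in the cytosol, and the heteromer of SLC51A and SLC51B releases them at the basolateral side into portal blood. Inside the cell bile acids activate FXR, the product of Nr1h4, which drives Fabp6, Slc51a, Slc51b, Nr0b2 and the hormone gene Fgf15. FGF15 travels to the liver and lowers bile acid synthesis, NR0B2 (SHP) is a corepressor induced by FXR, and GPBAR1 (TGR5) is a bile acid receptor of the plasma membrane.

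Each probe is a run of 60 bases, and the array's annotation places all 10 on mouse build mm9. The sequences of probes of 6 genes follow, 5′ to 3′ in the sense of the transcript, to show which stretch of each mRNA was read. They lie at chr8:5086145-5086204 (Slc10a2), chr11:43410973-43411032 (Fabp6), chr16:32475871-32475930 (Slc51a, second probe), chr9:65260705-65260764 (Slc51b), chr4:133109694-133109753 (Nr0b2) and chr1:74326104-74326163 (Gpbar1). Those of Nr0b2 and Gpbar1 match the plus strand and the other 4 the minus strand.
Slc10a2: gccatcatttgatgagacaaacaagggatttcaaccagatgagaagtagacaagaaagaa
Fabp6: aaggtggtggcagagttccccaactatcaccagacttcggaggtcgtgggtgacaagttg
Slc51a: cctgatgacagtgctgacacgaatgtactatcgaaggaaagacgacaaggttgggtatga
Slc51b: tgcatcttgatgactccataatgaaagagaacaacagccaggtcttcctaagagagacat
Nr0b2: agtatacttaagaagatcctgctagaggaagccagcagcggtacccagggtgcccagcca
Gpbar1: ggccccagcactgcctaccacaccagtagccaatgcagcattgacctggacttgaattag
The Fgf15 probe lies at chr7:152086371-152086430, the brighter Slc51a probe at chr16:32475636-32475695, and the Nr1h4 probes at chr10:88917222-88917281 and chr10:88960160-88960219. The exon or untranslated region of each probe was not analysed here.

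FXR is known to bind inverted repeats, and the promoters of the members were searched for AGGTCA, 1 free base and TGACCT, a motif that reads the same on both strands. RefSeq promoters (build GRCm38.p6, 250 bases before to 50 after the start) were held for 7 of the 8 genes, all but Fgf15. The best match in Fabp6 had 2 mismatches and lay at positions -222 to -210 from the start, and those in Slc51a and Slc51b had 3 mismatches each. These 3 windows are shown because the genes are FXR targets of the transport route, with the match in capitals, at chr11:43601764-43601792, chr16:32487938-32487966 and chr9:65422940-65422968, all on the minus strand.
Fabp6: gagcagagAGGTGAATGACCAcactctgt
Slc51a: accacgtgAGGACTTTGTCCTtctcttct
Slc51b: cattcgtgGGGTCATTCACCCtggactgg
Of 32851 promoters of the same length, 1.14% held a match with at most 2 mismatches, 11.4% with at most 3 and 56.4% with at most 4, the number found for Slc10a2, Nr1h4, Nr0b2 and Gpbar1. A match is a description of the letters and no site of binding.

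The tissue carried the markers of ileal enterocytes: all 8 enterocyte markers listed (among them Vil1, Epcam and Alpi) were in the table, and their summed level lay between 317000 and 456000 on every array on the linear scale. Markers of the ileum itself, the vitamin B12 receptor genes Cubn and Amn, were not level: their sum was 38000 to 56900 in WT CONT, 43700 to 60600 in WT PCN, 25600 to 40600 in Pxr-/- CONT and 37300 to 58600 in Pxr-/- PCN. Under oil both were lower in Pxr-/- than in WT with an unadjusted p under 0.05 (limma, 9.03% of all probes), and 0 were called. Cubn differed by -0.66 there (unadjusted p = 0.000465, limma, adjusted p = 0.097), and averaged over the treatments by -0.49 (adjusted p = 0.0383, under the fold threshold). The probe of the targeted gene did not separate the genotypes: Nr1i2 had 12.14 ± 0.16 (SD, log2, n = 6) in WT CONT and 11.73 ± 0.36 (n = 6) in Pxr-/- CONT, with ranges that overlapped, and the part of the gene that was deleted was not set against the probe. Cyp3a11, a drug-metabolizing P450 induced through PXR, rose by 3.53 (log2, limma, adjusted p = 1.49e-06) with PCN in WT, and changed by -0.05 (adjusted p = 0.952) in Pxr-/-. Arrays of 1 group correlated at 0.987 to 0.996 over all probes. B cell markers stood apart on 2 arrays, with summed levels of 13100 in WT PCN replicate 3 and 12100 in replicate 2 against 1390 to 4510 on the other 21. Colon markers stood apart on 2 arrays as well, with 15900 in Pxr-/- PCN replicate 3 and 13000 in replicate 6 against 2590 to 7160 on the other 21. All 3 measured colon markers were also higher in Pxr-/- than in WT, by a median of 0.98 under oil and 1.40 under PCN. Of these 0 were called. An unadjusted p under 0.05 was held by 0 under oil and 2 under PCN (limma, 9.03% and 7.05% of all probes). Their sum was 4310 to 6980 in Pxr-/- CONT against 3600 to 4570 in WT CONT.

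None of the 7 measured genes changed by the study's rule (limma, Benjamini-Hochberg adjusted p at most 0.05 over all probes and a fold change above 1.5) in any of 7 comparisons, each gene taken by its brightest probe. With PCN in WT 0 of 7 were called, where 0.692% of all probes were, and 0 had an unadjusted p under 0.05 (11.8% of all probes). With PCN in Pxr-/- 0 of 7 were called (0.947% of all probes), and 2 had an unadjusted p under 0.05 (19.6%). At these backgrounds a count of 0 of 7 does not set the genes apart. For the difference of the PCN effect between genotypes the counts were 0 called (0.078% of all probes) and 0 under the unadjusted threshold (4.52%). Between genotypes they were 0 and 0 under oil (0.148% and 9.03%) and 0 and 0 under PCN (0.366% and 7.05%). For PCN averaged over the genotypes 0 were called (0.939%) and 2 passed the unadjusted threshold (24.2%). These were Slc51b (-0.20, unadjusted p = 0.0321, limma, adjusted p = 0.161) and Fabp6 (-0.13, unadjusted p = 0.0293, adjusted p = 0.152). For genotype averaged over the treatments 0 were called (0.396%) and 1 passed the unadjusted threshold (10.3%). The median change of the 7 genes was 0.06 with PCN in WT and -0.06 in Pxr-/-, against -0.01 over all probes in either genotype.

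**Figure D1:**
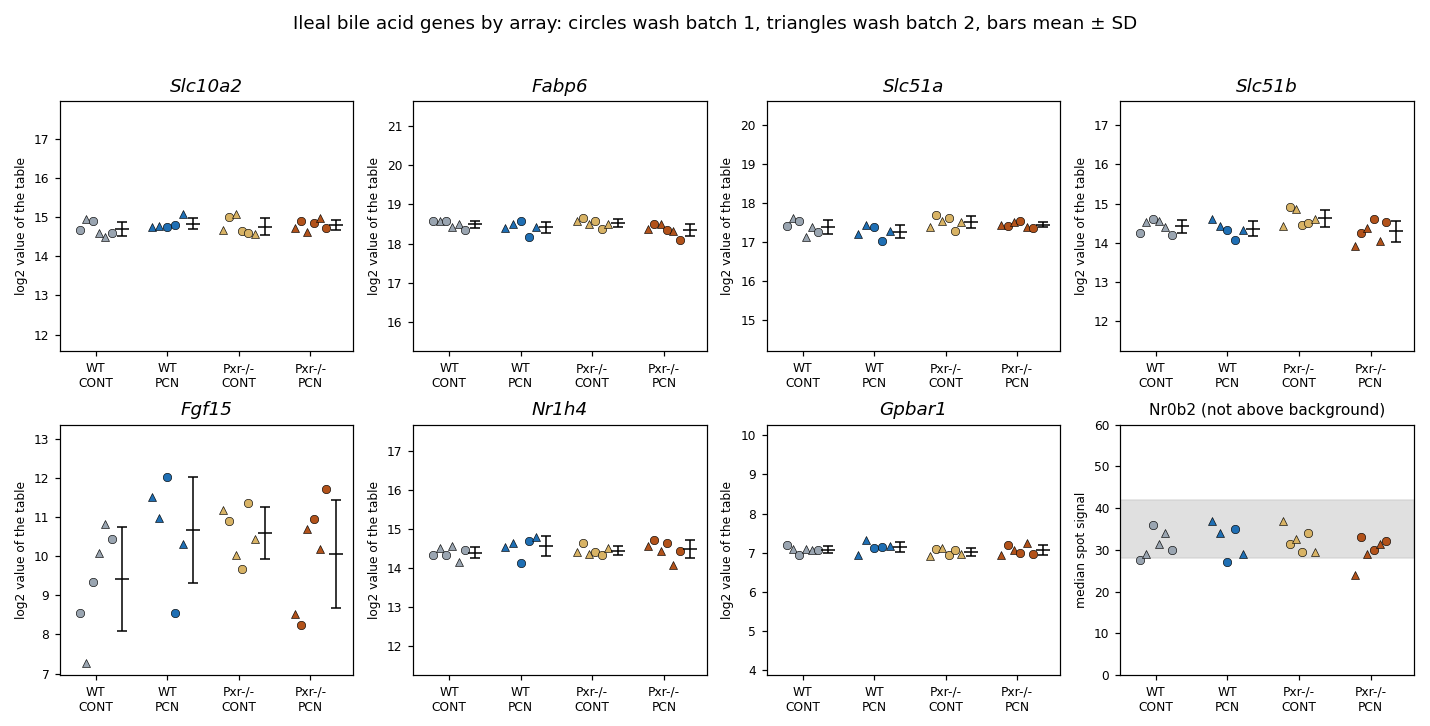
Log2 values of the deposited table (brightest probe of each gene, y axes of equal span) by group, 1 point per array, with circles for wash batch 1, triangles for wash batch 2 and bars for mean ± SD, and in the last panel the scanner's median spot signal of Nr0b2 with the range of the arrays' detection floors (28 to 42) in grey. Fgf15 spreads over 7.28 to 12.01 while the other 6 measured genes hold narrow bands in all 4 groups.

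Slc10a2, the uptake transporter, held the same level throughout, between 14.50 and 15.08 (log2) on the 23 arrays. Its median was 14.64 in WT CONT (14.50 to 14.95), 14.77 in WT PCN (14.75 to 15.08), 14.66 in Pxr-/- CONT (14.56 to 15.08) and 14.79 in Pxr-/- PCN (14.61 to 14.98). The 4 groups overlapped. PCN changed it by 0.13 in WT (95% interval -0.10 to 0.35, limma, adjusted p = 0.713) and by 0.04 in Pxr-/- (-0.17 to 0.25, adjusted p = 0.865). Over all 7 comparisons the intervals of Slc10a2 lay within 0.838- and 1.31-fold. A further probe, at chr8:5083366-5083425, is named 9130221J18Rik on the array, which the RefSeq table gives as an older name of Slc10a2. It lay at 14.39 to 15.13 in WT CONT and 14.74 to 15.06 in WT PCN, and its residuals (each array minus its group and wash batch fit) followed those of Slc10a2 with r = 0.87 over 23 arrays.

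Fabp6, the cytosolic carrier, was among the brightest features of the array, at rank 2 to 19 of 37161 probes on each array. Its scanner signal was 278810 to 445437, and it took only 10 distinct table values on the 23 arrays, since the normalization gives every array the same set of values. The medians were 18.53 in WT CONT, 18.43 in WT PCN, 18.53 in Pxr-/- CONT and 18.36 in Pxr-/- PCN. The group ranges overlapped, from 18.10 at the lowest array, in Pxr-/- PCN, to 18.65 at the highest, in Pxr-/- CONT. With PCN Fabp6 changed by -0.17 in Pxr-/- (SE 0.08, 95% interval -0.33 to -0.01, unadjusted p = 0.0334, limma, adjusted p = 0.21) and by -0.08 in WT (-0.25 to 0.08, adjusted p = 0.749). The difference between these was 0.09 (-0.14 to 0.31, adjusted p = 1.00).

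The exporter subunits were likewise close to level. Slc51a had medians of 17.40 in WT CONT, 17.28 in WT PCN, 17.52 in Pxr-/- CONT and 17.43 in Pxr-/- PCN, with group ranges that overlapped between 17.01 and 17.70. PCN changed it by -0.13 in WT (95% interval -0.32 to 0.07, limma, adjusted p = 0.657) and by -0.06 in Pxr-/- (-0.24 to 0.12, adjusted p = 0.752). Its second probe, whose residuals followed the first with r = 0.84, changed by -0.18 in WT (-0.36 to -0.01, unadjusted p = 0.0397, adjusted p = 0.389). Averaged over the treatments, Slc51a was 0.14 higher in Pxr-/- by the brighter probe (unadjusted p = 0.0329, limma, adjusted p = 0.407) and 0.01 lower by the second (-0.01, adjusted p = 0.989), so the probes differed on the only genotype comparison of the 7 genes that passed the unadjusted threshold.

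Slc51b had the lowest adjusted p of the 7 genes. In Pxr-/- CONT it lay between 14.43 and 14.91 with a median of 14.55, and in Pxr-/- PCN between 13.93 and 14.60 with a median of 14.31. In WT CONT it lay between 14.19 and 14.60, and in WT PCN at 14.61, 14.43, 14.33, 14.08 and 14.31. Every pair of groups overlapped, and 4 of 6 Pxr-/- PCN arrays lay below the lowest Pxr-/- CONT array. The change with PCN in Pxr-/- was -0.34 (SE 0.12, 95% interval -0.59 to -0.08, 0.665- to 0.944-fold, unadjusted p = 0.0114, limma, adjusted p = 0.124). In WT it was -0.07 (-0.33 to 0.20, adjusted p = 0.905), and the difference between the genotypes was 0.27 (-0.10 to 0.63, adjusted p = 1.00). Without Pxr-/- PCN replicates 3 and 6, rich in colon markers, Slc51b changed by -0.42 in Pxr-/- (adjusted p = 0.0812) and Fabp6 by -0.14 (adjusted p = 0.309). In the same Pxr-/- comparison, where 0.947% of all probes were called, 2 of 5 smooth muscle markers rose (Actg2 by 0.67, Cnn1 by 0.66), and the list's summed level was 158000 to 267000 with PCN against 107000 to 170000 with oil. Of 4 fibroblast markers 2 were called there (Col1a1 by 1.01, Col3a1 by 0.81), with summed levels of 50400 to 91200 against 31300 to 56600. With PCN in WT all 5 smooth muscle and all 4 fibroblast markers were higher too, with 0 called. Of these, 4 and 0 had an unadjusted p under 0.05 (limma, 11.8% of all probes). The smooth muscle sum was 131000 to 205000 in WT PCN against 110000 to 132000 in WT CONT. For the difference of the PCN effects 0 of either list passed the unadjusted threshold (4.52%). Of 4 neutrophil markers 2 were called with PCN in Pxr-/-, S100a8 (2.56, adjusted p = 0.00091) and S100a9 (2.90, adjusted p = 0.00108). The list's sum adds linear levels and so follows its brightest probes, and it was 42800 to 49000 against 36400 to 50600. These 2 were also called with PCN in WT (1.63 and 2.16), and Cxcr2 was called with PCN averaged over the genotypes (0.60, adjusted p = 0.00663). The Cxcr2 probe was above background on only 10 arrays, so its change was partly read near background. Higher values with PCN were held by 3 of the 4 neutrophil markers in Pxr-/-, by 3 averaged over the genotypes and by all 4 in WT. Of the 2 ileal markers Cubn was called in Pxr-/- (0.59, adjusted p = 0.0428), and 0 of 8 enterocyte markers were called (3 had an unadjusted p under 0.05, limma, where 19.6% of all probes did). The part of these markers in the Slc51b and Fabp6 values was not tested.

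Fgf15, the ileal hormone, differed from mouse to mouse more than any other of these genes. In WT CONT its lowest, median and highest log2 values were 7.28, 9.70 and 10.81. In WT PCN the 5 arrays had 11.50, 10.97, 12.01, 8.53 and 10.31. In Pxr-/- CONT they were 9.67, 10.66 and 11.35, and in Pxr-/- PCN 8.25, 10.44 and 11.71. The groups overlapped throughout, and the highest and the lowest mouse of a group were 11.5-fold apart in WT CONT, 11.2-fold in WT PCN, 3.21-fold in Pxr-/- CONT and 11.0-fold in Pxr-/- PCN. Over all 23 arrays the table values had a 26.6-fold range, from 7.28 to 12.01. The scanner's median signal, before normalization, lay between 179 and 3984, and every array was well above background.

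By its mean, Fgf15 was highest in WT PCN (10.67 ± 1.35, SD, n = 5), followed by Pxr-/- CONT (10.59 ± 0.67, n = 6), Pxr-/- PCN (10.05 ± 1.38, n = 6) and WT CONT (9.41 ± 1.32, n = 6). No neighbours in this order differed by more than 1 SD. The change with PCN was 1.26 in WT (SE 0.68, 95% interval -0.16 to 2.67 or 0.895- to 6.36-fold, limma, adjusted p = 0.497). In Pxr-/- it was -0.54 (-1.89 to 0.80, or 0.27- to 1.75-fold, adjusted p = 0.688). The difference between these effects was 1.80 (SE 0.94, -0.16 to 3.75, unadjusted p = 0.0695, adjusted p = 1.00). Under oil Pxr-/- mice had 1.18 more than WT (-0.17 to 2.53, adjusted p = 0.647), and under PCN the difference was -0.62 (-2.03 to 0.80, adjusted p = 1.00). Intervals of this width hold no change as well as changes of several-fold, so neither was shown.

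The Fgf15 contrasts moved with single arrays, that in WT first. Without WT PCN replicate 4, the low array of its group, it was 1.87 (unadjusted p = 0.0103, limma, adjusted p = 0.206). Without WT CONT replicate 2, the lowest table value of all, it was 0.78 (adjusted p = 0.782). Without WT PCN replicate 3, the highest table value, it was 0.88 (adjusted p = 0.691). Replicates 2 and 3 of WT PCN are also the arrays rich in B cell markers, and without both the change was 0.68 (adjusted p = 0.802). Within wash batch 1 it was 0.83 (adjusted p = 1.00) and within wash batch 2 it was 1.54 (adjusted p = 0.606). The change was above 0 in each of these. In Pxr-/- the change was -0.22 without Pxr-/- PCN replicate 1, -0.16 without replicate 2 and -0.89 without replicate 6, and the oil difference was 0.73 without WT CONT replicate 2. The difference under PCN was -1.23 without WT PCN replicate 4, -0.24 without replicate 3 and -0.41 without replicate 1. It was -0.28, -0.25 and -0.95 without Pxr-/- PCN replicates 1, 2 and 6. Without both Pxr-/- PCN arrays rich in colon markers the change in Pxr-/- was -1.11 (adjusted p = 0.379), the difference under PCN -1.18 (adjusted p = 0.975) and the difference of the PCN effects 2.36 (unadjusted p = 0.0227, limma, adjusted p = 0.926). None of these was called.

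**Figure D2:**
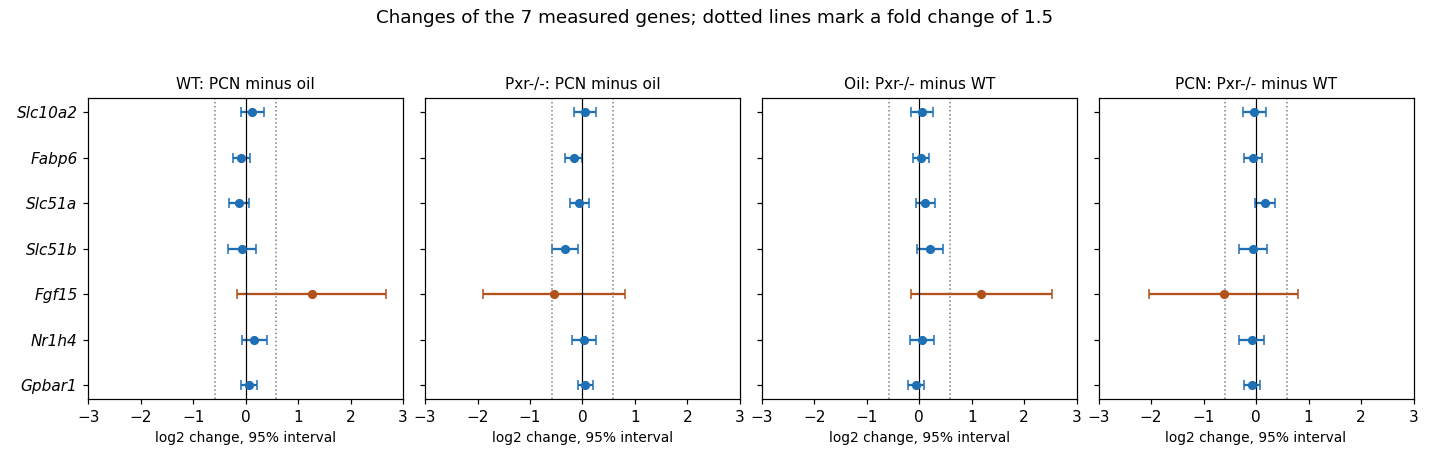
Log2 changes (x axis) of the 7 measured genes with their 95% intervals from limma for PCN against oil in each genotype and for Pxr-/- against WT under each treatment, with dotted lines at a fold change of 1.5. Every interval of Fgf15 reaches past a dotted line. Those of the other 6 genes lie between -0.59 and 0.45, and only that of Slc51b with PCN in Pxr-/- reaches just past a line, at -0.588.

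The spread of Fgf15 within groups was a residual SD of 1.24 (log2, after group and wash batch), which only 77 of 37161 probes exceeded. The median over all probes was 0.17. Slc51b had 0.22, Nr1h4 0.20, Slc10a2 0.18, Slc51a 0.15, Fabp6 0.12 and Gpbar1 0.11, placing them at percentiles 11.5 to 74.5 of all probes. For the 6 genes other than Fgf15 no interval in any of the 7 comparisons reached below 0.665-fold or above 1.55-fold.

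**Figure D3:**
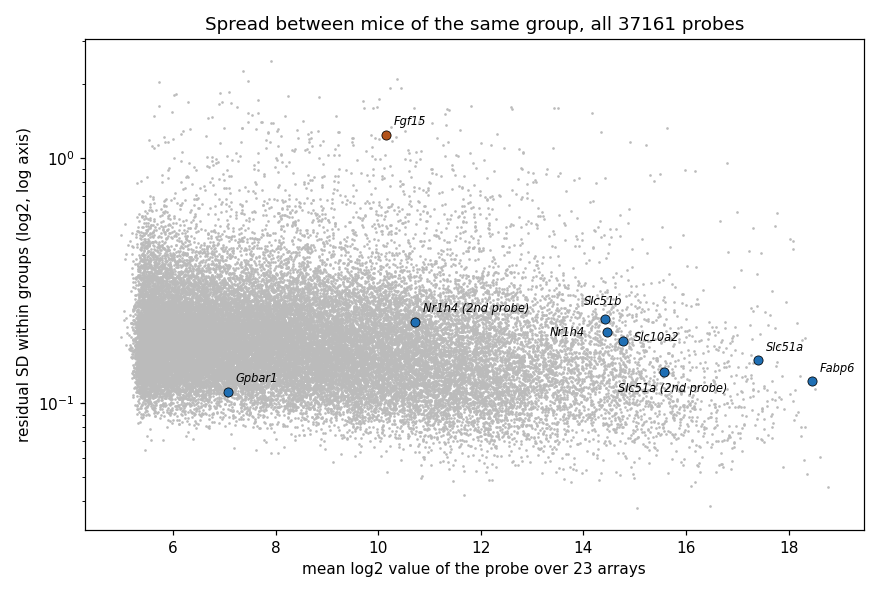
Residual SD within groups (y axis, log scale) against the mean log2 value over 23 arrays (x axis) for all 37161 probes in grey, with the 9 probes of the bile acid genes marked. Fgf15, at 1.24, stands near the top of the cloud and the other 8 probes lie between 0.11 and 0.22.

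The bile acid receptors held narrow bands too. Nr1h4, encoding FXR, had medians of 14.41 in WT CONT, 14.64 in WT PCN, 14.41 in Pxr-/- CONT and 14.50 in Pxr-/- PCN, all groups overlapping between 14.09 and 14.79. PCN changed it by 0.16 in WT (95% interval -0.07 to 0.40, limma, adjusted p = 0.634) and by 0.03 in Pxr-/- (-0.19 to 0.26, adjusted p = 0.898). Its second probe gave 0.18 (adjusted p = 0.626) and -0.09 (adjusted p = 0.709), and the residuals of the probes correlated at 0.69.

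Gpbar1, encoding TGR5, gave a low but measured signal of 104 to 161 on the 23 arrays, above background on each. Its medians were 7.08 in WT CONT, 7.13 in WT PCN, 7.02 in Pxr-/- CONT and 7.02 in Pxr-/- PCN. Its intervals over the 7 comparisons lay within 0.856- and 1.16-fold. Nr0b2, encoding the corepressor SHP, was well above background on 0 of 23 arrays. Its median spot signal was 24 to 37, beside detection floors of 28 to 42 and negative control medians of 24 to 28. No fold change is given for it, as both sides of each comparison were at the floor.

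The residuals of the 7 genes were compared in pairs over the 23 arrays, as a description, since all values come from the same arrays. Of 21 pairs, 1 had r above 0.5, Fabp6 with Slc51a (r = 0.73, rho = 0.74, and r = 0.71 without the 2 arrays farthest from the median). Slc51a and Slc51b, the subunits of the exporter, had r = 0.41. Fgf15 had r = 0.35 with Slc51b, -0.11 with Slc51a, -0.14 with Fabp6, -0.39 with Slc10a2 and -0.41 with Nr1h4. These values are low beside the 0.73 of Fabp6 with Slc51a.

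**Figure D4:**
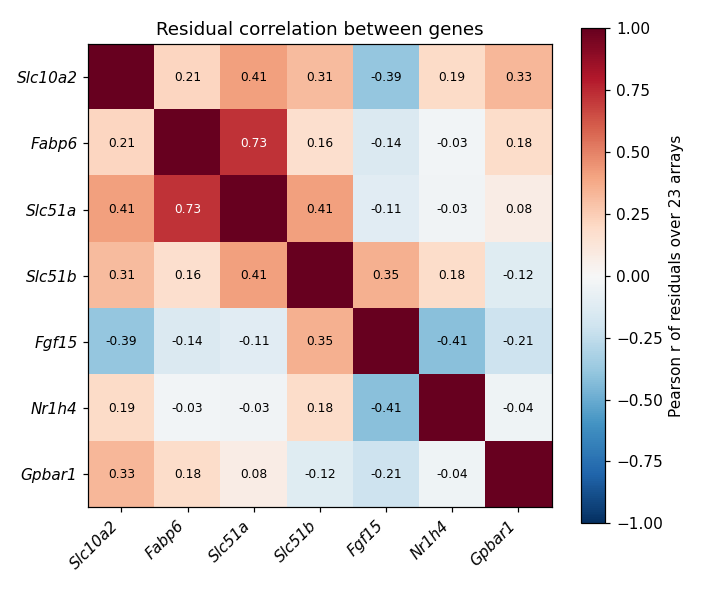
Pearson r between the residuals (value minus group and wash batch fit) of the 7 measured genes over 23 arrays, from blue at -1 to red at 1. Fabp6 with Slc51a, at 0.73, is the only pair above 0.5, and Fgf15 has its lowest value, -0.41, with Nr1h4.

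Among 23905 genes, those whose residuals were most like Fgf15 were the transcript 5033423O07Rik (r = 0.86, rho = 0.90), the transcript CB566291 (r = 0.79) and Duox2, a dual oxidase of the epithelium (r = 0.78). For Slc51b they were the adaptor gene Shb (r = 0.84), Arl5b (0.83) and Krt20 (0.83), a keratin of differentiated enterocytes. For Slc10a2, after its own older name, they were the vinculin gene Vcl (0.80) and Lrrfip1 (0.79). For Slc51a the closest was BC051142 (0.77), which was also among the 3 closest to Fabp6 (0.77). The closest of Nr1h4 was Zfand2a (0.82). Each was picked as the highest among 23905 genes, over 23 arrays that all the genes share.

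The wider pathway was described by a list of 47 genes, of which 45 were in the table and Cyp7a1 and Cyp8b1 were not. With PCN in WT 2 of 45 were called higher and 0 lower (0.692% of all probes were called), and with PCN in Pxr-/- 1 higher and 0 lower (0.947%). In Pxr-/- against WT 0 were higher and 1 lower under oil (0.148%), and 0 higher and 2 lower under PCN (0.366%). Averaged over the genotypes PCN gave 2 higher and 0 lower (0.939%), and averaged over the treatments Pxr-/- gave 0 higher and 2 lower (0.396%). For the difference of the PCN effects 0 were called (0.078%), and 4 had an unadjusted p under 0.05 (limma, 4.52% of all probes). All these calls fell on 2 genes, Abcb4 and Abcc2. The median change of the 45 genes was 0.03 with PCN in WT and 0.08 in Pxr-/-, against -0.01 over all probes in each.

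Abcb4, the pump that moves phosphatidylcholine into bile in liver, is read at chr5:8959108-8959167 (mm9). It lay at 13.11 to 13.93 (median 13.32) in WT CONT and at 14.36, 15.24, 15.30, 14.99 and 14.49 in WT PCN. It lay at 11.63 to 12.52 (median 11.80) in Pxr-/- CONT and 12.62 to 13.27 (median 13.06) in Pxr-/- PCN. Within each genotype PCN and oil arrays did not overlap, and under each treatment Pxr-/- arrays lay below all WT arrays. The rise with PCN was 1.51 in WT (SE 0.18, limma, adjusted p = 4.6e-05) and 1.11 in Pxr-/- (SE 0.17, adjusted p = 0.00144), with a difference of 0.41 (SE 0.25, adjusted p = 1.00). Pxr-/- differed from WT by -1.46 under oil (SE 0.17, adjusted p = 0.000112) and by -1.87 under PCN (SE 0.18, adjusted p = 1.35e-06). Within wash batch 1 alone the rise in Pxr-/- was 0.95 (adjusted p = 0.301) and the oil difference -1.26 (adjusted p = 0.243), and within wash batch 2 the rise in WT was 1.27 (adjusted p = 0.0718).

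Abcc2, an apical export pump for conjugated organic anions including bile acid conjugates, is read at chr19:43912079-43912138 (mm9). It lay at 10.02 to 10.77 (median 10.27) in WT CONT and at 11.17, 12.33, 11.70, 11.60 and 11.58 in WT PCN. In Pxr-/- CONT it lay at 9.27 to 10.67 (median 9.61) and in Pxr-/- PCN at 9.99 to 10.86 (median 10.39). The WT groups did not overlap and the Pxr-/- groups did. Abcc2 rose by 1.36 with PCN in WT (SE 0.23, limma, adjusted p = 0.00235) and was lower in Pxr-/- than in WT under PCN (-1.29, SE 0.23, adjusted p = 0.0056). In Pxr-/- the change with PCN was 0.70 (SE 0.22, adjusted p = 0.0766), and the difference between the genotypes was 0.66 (SE 0.32, adjusted p = 1.00), so a different response was not shown. Within single wash batches the WT rise was 1.29 (adjusted p = 0.46) and 1.41 (adjusted p = 0.0855) and the genotype difference under PCN -1.33 (adjusted p = 0.317) and -1.21 (adjusted p = 0.205). Without the 2 WT PCN arrays rich in B cell markers that difference was -1.08 (adjusted p = 0.0815), and without the 2 Pxr-/- PCN arrays rich in colon markers it was -1.10 (adjusted p = 0.0705).

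**Figure D5:**
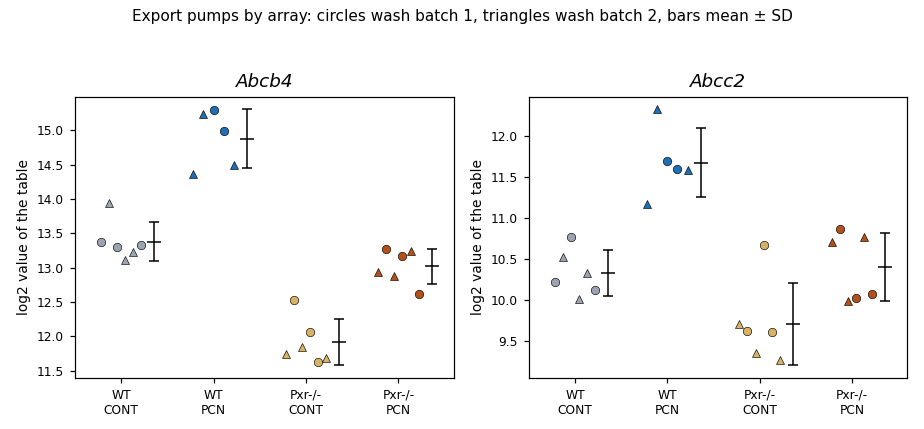
Log2 table values of Abcb4 and Abcc2 by group, 1 point per array (circles wash batch 1, triangles wash batch 2), with mean ± SD. Abcb4 with PCN lies above oil in both genotypes, at 14.36 to 15.30 against 13.11 to 13.93 in WT, and every Pxr-/- array lies below every WT array of the same treatment.

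Both pumps belong to the 13 measured genes of bile acid and organic solute handling, and the other 3 groups of the list held no called gene. Counting both pumps, 3 of the 13 had an unadjusted p under 0.05 with PCN in WT (limma, 11.8% of all probes). With PCN in Pxr-/- 5 did (19.6%), and 4 averaged over the genotypes (24.2%). For the difference of the PCN effects 2 did (4.52%), and between genotypes 6 under oil (9.03%), 3 under PCN (7.05%) and 5 averaged (10.3%). Among those 13 the exporter gene Abcg2 had an adjusted p of 0.0272 with PCN in Pxr-/- but a change of -0.40, under the fold threshold. Of 7 further FXR target genes, 4 had an unadjusted p under 0.05 with PCN in WT (limma, 11.8% of all probes). With PCN in Pxr-/- 3 did (19.6%), and 3 averaged over the genotypes (24.2%). For the difference of the PCN effects 2 did (4.52%), and between genotypes 1 under oil (9.03%), 2 under PCN (7.05%) and 1 averaged (10.3%). Il18, an epithelial cytokine, had 0.70 with PCN in WT (SE 0.24, adjusted p = 0.19) and -0.38 in Pxr-/- (adjusted p = 0.369), and the difference of 1.08 had an unadjusted p of 0.00345 (limma, adjusted p = 0.672). Ang4, a Paneth cell antimicrobial, had 0.76 in Pxr-/- (adjusted p = 0.0855), and the difference of the PCN effects was 0.92 for Nos2 (adjusted p = 1.00) and -0.77 for the carbonic anhydrase gene Car12 (adjusted p = 0.698). Sptlc2, of sphingolipid synthesis, had -0.42 with PCN in Pxr-/- (adjusted p = 0.0262), also under the fold threshold. Of 19 receptors, partners and regulators, the transcription factor gene Fos had -1.10 with PCN in Pxr-/- (SE 0.37, adjusted p = 0.0959), which was called without WT CONT replicate 1 (-1.10, adjusted p = 0.0374) or without Pxr-/- CONT replicate 4 (-1.34, adjusted p = 0.0389). Nr1i2 was -0.44 in Pxr-/- averaged over the treatments (adjusted p = 0.0397, under the fold threshold). Within wash batch 2 alone Nr1i2 was called, at -0.74 under oil (adjusted p = 0.0306), -0.68 under PCN (adjusted p = 0.0242) and -0.71 averaged (adjusted p = 0.000839), and over the alternatives the averaged value reached as near 0 as -0.12. Klb and Fgfr4, the receptor of FGF15, are in that list, as is Malrd1, a regulator of Fgf15, and 0 of the 19 were called in any of the 7 comparisons (limma). Of the 19, 1 had an unadjusted p under 0.05 with PCN in WT (limma, 11.8% of all probes). With PCN in Pxr-/- 4 did (19.6%), and 4 averaged over the genotypes (24.2%). For the difference of the PCN effects 0 did (4.52%), and between genotypes 2 under oil (9.03%), 2 under PCN (7.05%) and 1 averaged (10.3%). Of 6 genes of gut hormones and TGR5 signalling 0 were called, with 0 at an unadjusted p under 0.05 for PCN in WT or in Pxr-/- (limma, 11.8% and 19.6% of all probes). For PCN averaged over the genotypes 2 of the 6 passed that threshold (24.2%). Between genotypes 1 passed it under oil (9.03%), 1 under PCN (7.05%) and 3 averaged over the treatments (10.3%).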

How the data were processed

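The authors scanned each array with Agilent Feature Extraction 10.10.1.1 and deposited the spot intensity of every feature (150 ng RNA labelled per sample). The study's methods, written for liver arrays of the study, give the steps behind the deposited log2 table as a filter on the median signal, log2, correction for washing batch and CrossNorm. Here the log2 columns shared 1 set of values (largest quantile difference 0) and followed the scanner's median signal (Spearman 0.9995 to 0.99967). The filter rule is not given in the sources used here.

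R 4.3.3 ran the fits on the log2 table by limma 3.58.1 and data.table (version 1.17.8), with 4 groups and wash batch (labels) on all 23 arrays, 7 contrasts and Benjamini-Hochberg adjustment over 37161 probes. Intervals are moderated 95% intervals, and a likeness is Pearson's r of residuals. Genes with several probes were taken by the brightest. The deposited intensity and background flags gave detection and alternatives: quantile, median or 75th percentile scaling, normexp (offset 50), dim probes left out, no batch term, slide or replicate number as a block, the compared groups or each batch alone, the mean of a gene's probes, no fold threshold, each array left out, and 2 pairs of arrays rich in B cell or colon markers. Named genes were the 8 members, genes with the closest residuals, called markers, and pathway genes called or among the 3 largest changes of a comparison; Abcg2 and Sptlc2 were named after their values were seen. Members and lists were chosen with earlier results of these data known. The fit was tested on simulated data. The number of arrays limits the precision. P-values set a difference of group means against the spread between arrays of a group, 1 array per mouse, as moderated by limma over all probes. That spread holds technical noise as well as differences between mice. WT PCN has 5 arrays here, of 6 mice allocated per the labels.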

Additional observations from a re-analysis of the deposited data

Results flagged for a closer look

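Among 44 sets of values (the 9 table probes and the probes of Abcb4 and Abcc2 in 4 groups), 3 held an array whose gap to its neighbour was above Dixon's limit for the range, where chance gives about 1 in 20. Slc10a2 in WT PCN had 15.08 in replicate 5 against 14.80 for the next array (ratio 0.858). Abcb4 in WT CONT had 13.93 in replicate 2 against 13.37 (ratio 0.685). Abcc2 in Pxr-/- CONT had 10.67 in replicate 4 against 9.70 (ratio 0.691). Fgf15 passed the limit in no group: its values were spread rather than set apart by 1 array.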

How the results depend on the processing

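The count of called genes stayed at 0 of 7 under 15 alternatives in the 4 comparisons of 2 groups, under 14 in the other 3 (which use all groups, so a fit of the compared groups alone was not run), and with each of 23 arrays left out in turn. Leaving out WT PCN replicates 2 and 3, or Pxr-/- PCN replicates 3 and 6, was chosen after seeing the data. The filter on dim probes removed 0 probes. Replicate numbers did not pair the mice: of 33 same-numbered pairs 6 had correlated deviations over 0.1 (from -0.204 to 0.423), and 7 of 23 arrays correlated best with their own number. With the replicate block the count was again 0, and Gpbar1's difference of PCN effects was -0.0036.

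Of 49 changes of single genes, some turned their sign, none of them called. Not all of these were near 0: with all arrays the genotype difference of Fgf15 was -0.62 under PCN and 0.28 averaged over the treatments. With the array median as centre, PCN in Pxr-/- gave -0.031 for Slc10a2 and -0.034 for Nr1h4, and with the 75th percentile -0.0090 for Slc10a2 and, in WT, 0.023 for Fabp6. Normexp gave -0.0039 for Gpbar1's difference of PCN effects. Wash batch 1 alone gave differences of PCN effects of -0.032 (Slc10a2) and -0.10 (Nr1h4), genotype differences under PCN of 0.050 (Slc10a2), 0.031 (Fgf15), 0.25 (Slc51b) and 0.19 (Nr1h4), and an average genotype difference of 0.13 (Nr1h4). Wash batch 2 alone gave -0.068 for Nr1h4 with PCN in Pxr-/-, -0.026 for Gpbar1's difference of PCN effects, and average genotype differences of -0.0051 (Slc10a2) and -0.10 (Slc51b). The mean of both probes gave Nr1h4 -0.029 with PCN in Pxr-/- and 0.037 for the average genotype difference. Without WT PCN replicates 2 and 3 the values were -0.046 for Gpbar1's difference of PCN effects, 0.023 for Fabp6 between genotypes under PCN, and average genotype differences of -0.015 (Slc10a2) and 0.026 (Fabp6). Without Pxr-/- PCN replicates 3 and 6 they were -0.019 for Gpbar1's difference of PCN effects, 0.032 for Slc10a2 between genotypes under PCN, and -0.00040 for Fgf15's average genotype difference. The cause was not tested.

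Leaving out single arrays turned the sign within these ranges. With PCN in WT they were -0.13 to 0.0090 for Slc51b, and in Pxr-/- -0.00072 to 0.11 for Slc10a2 and -0.016 to 0.12 for Nr1h4. For the difference of PCN effects they were -0.12 to 0.0048 (Slc51a) and -0.037 to 0.054 (Gpbar1). Under oil they were -0.015 to 0.10 (Slc10a2) and -0.0021 to 0.057 (Fabp6), and under PCN -0.074 to 0.030 (Slc10a2), -0.14 to 0.015 (Slc51b) and -0.20 to 0.0064 (Nr1h4). For the average genotype difference they were -0.026 to 0.041 (Slc10a2), -0.026 to 0.47 (Fgf15), -0.046 to 0.0090 (Fabp6) and -0.077 to 0.028 (Nr1h4).

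Abcb4 and Abcc2 kept their calls with each array left out in turn. Abcc2 lost its genotype call under PCN without WT PCN replicates 2 and 3 or Pxr-/- PCN replicates 3 and 6, and both lost calls within single wash batches, where fewer arrays were tested.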
